A study of Arabidopsis thaliana with 72 samples.

Results

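Shoots of the Arabidopsis thaliana accession El-0 were compared between plants grown on 0.4 mM nitrate, called low here, and on 9 mM nitrate, called sufficient. Each supply had 3 arrays, so the comparison rests on 6 of the 72 arrays of a study of 6 lines, and it covers all 22746 probe sets of the array. The submitters describe the lines as differing in growth when nitrogen is scarce, and the question addressed here is which transcripts of El-0 shoots differed between the 2 supplies.

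All El-0 plants were of the stock labelled N1134. They were sampled 21 days after sowing, from upright square dishes of agar medium with 1% sucrose, so all groups had an external sugar supply. The sufficient medium held KNO3 and Ca(NO3)2. The low medium held less Ca(NO3)2, with KCl in place of KNO3, so chloride differed between the groups along with nitrate. A replicate pooled 30 plants from 3 plates, although the growth protocol speaks of 6 seeds a dish, and the labels call the replicates biological. In such whole-shoot pools, fewer cells of a type and less RNA per cell cannot be told apart. Roots of the same line under the same supplies, and shoots of the accession Fei-0 and the recombinant inbred lines KB006, NG064, NG087 and SG063, served for comparison.

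Nitrate is both the main nitrogen source of most land plants and a signal. It enters and moves through the plant by transporters of the NRT families, and it switches on genes of its own uptake and assimilation together with repressors of starvation genes. When it runs short, leaves commonly take apart chloroplast protein, send the nitrogen released to young tissue, and may accumulate anthocyanin. Small CC-type glutaredoxins, a plant-specific class of thiol proteins, take part in the response, some as signals that travel from shoot to root.

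Values are deposited log2 levels, so a difference of 1 is 2-fold. The lowest value in the table is 2.11, and a gene at this floor in 1 group has a change that is likely understated. Changes are low minus sufficient with the standard error of limma's moderated test, two-sided, from a fit in which the 12 shoot groups share 1 estimate of the spread. A probe set rose or fell where the Benjamini-Hochberg adjusted p over all probe sets was below 0.05. The fit left out the replicate 3 arrays of Fei-0, which in earlier work on these data went against their labels.

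Leaf genes checked the organ label. PRK, a kinase of the Calvin cycle, averaged 13.35 ± 0.04 (SD, n = 3) in El-0 shoots and 7.41 in El-0 roots at sufficient nitrate. Of 3 root marker genes, EXPA7 and EXPA18, expansins of root hairs, lay between 2.88 and 4.99 on the 6 shoot arrays. The remaining one, PYK10, a beta-glucosidase of endoplasmic reticulum bodies, lay between 11.24 and 11.63 in shoots and averaged 13.86 in roots at sufficient nitrate. None of the 3 passed the test between the supplies. The 100 probe sets with the largest excess of roots over shoots in 4 other lines averaged 4.66 ± 0.15 in low and 3.37 ± 0.11 in sufficient El-0 shoots (SD, n = 3), against 10.17 in El-0 roots at sufficient nitrate. Of these 100, 85 were higher at low nitrate. The calls were 20 rises and 1 fall, against 14.1% and 11.1% of all probe sets. In shoots of those 4 lines, whose sufficient arrays served to choose the set, it averaged 4.59 at low and 3.44 at sufficient nitrate. Among the genes described below, GSTU22, GSTU25, UGT71C1 and AT4G39675 belong to this set, and its part in the other rises was not tested.

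One array stood apart. Replicate 1 at sufficient nitrate differed 2-fold or more from replicate 2 at 4131 probe sets and from replicate 3 at 2889, while replicates 2 and 3 differed at 1109. In the other 10 shoot groups any pair of replicates used here differed at 540 to 2756. The pooled SD between replicates, over the 12796 probe sets with a mean of at least 5, was 0.65 in the sufficient El-0 group, 0.42 in the low El-0 group and 0.30 to 0.56 in the other groups. A shared estimate of the spread is therefore narrower than the sufficient El-0 group's own. Where leaving this array out ended a call or moved a called value of a named gene by over 1.5 times, the value or adjusted p without it is given. Beside the shared fit stands one of the 6 El-0 shoot arrays alone, which uses only the spread within El-0.

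Many transcripts differed between the supplies. Of 22746 probe sets 3205 rose, which is 14.1%, and 2529 fell, which is 11.1%. Changes of 2-fold or more were 1518 rises and 1492 falls. At 2795 of the rises and 2206 of the falls the 3 low arrays did not overlap the 3 sufficient ones, against 6751 (29.7%) of all probe sets. The median change over all probe sets was 0.00, and 0.09 over the brighter 12796. Array medians averaged 5.97 ± 0.01 at low and, with 9 mM nitrate, 5.80 ± 0.07 (SD, n = 3). Centring each array on its median therefore shifts every change by -0.17, and rises make up 23.4% of the calls instead of 55.9%. The shift includes the 5168 probe sets at the floor on all 6 arrays. Over the brighter 12796, rises made up 39.6% of the calls after centring and 55.7% before it. With quantile normalization, rises made up 50.4% of the calls over all probe sets. Without sufficient replicate 1, 2844 rose and 2531 fell, and 2395 of the rises and 2007 of the falls were shared with the full fit. With the 6 El-0 shoot arrays alone, 746 rose and 617 fell. The gene lists below hold 1 probe set per gene, while the shares set beside them are over all probe sets. In the full fit, 1574 of 13355 genes with a probe set of their own rose and 1401 fell. Of the brighter 12796 probe sets, 2755 rose and 2190 fell.

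**Figure D1:**
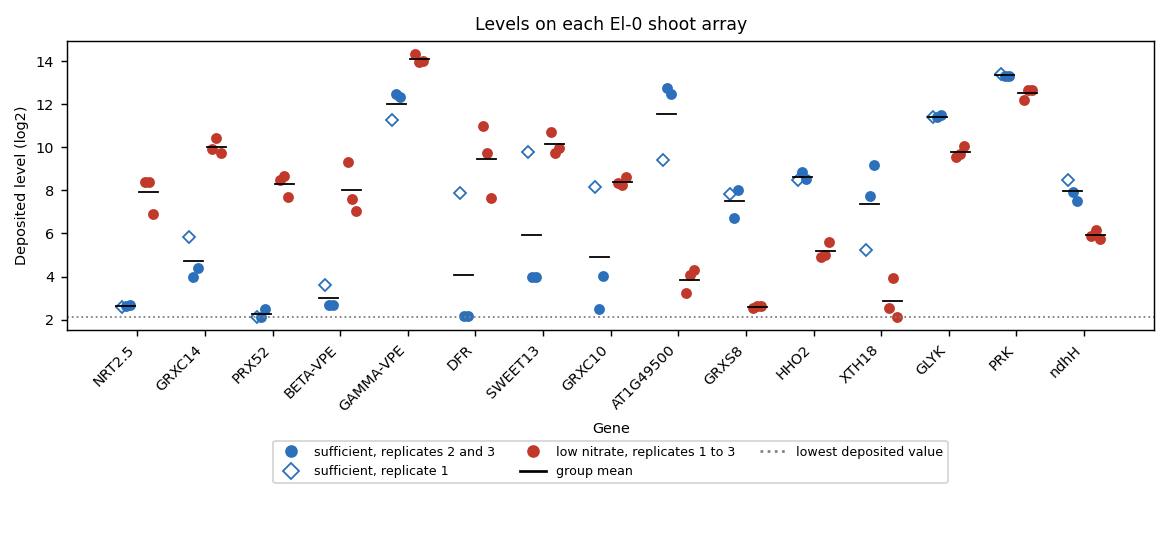
Deposited level (log2, vertical axis) of 15 genes on each of the 6 El-0 shoot arrays, with sufficient nitrate in blue and low nitrate in red. Bars mark group means and the dotted line the lowest deposited value of 2.11. The open diamond, sufficient replicate 1, lies near the low arrays for DFR, SWEET13 and GRXC10 and with its own group for NRT2.5, PRX52 and GLYK.

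The largest rises included a transporter of nitrate itself and a gene of a mobile signal. NRT2.5, a high-affinity nitrate transporter known from nitrogen-starved plants, read 8.41, 8.41 and 6.91 at low nitrate and 2.57, 2.61 and 2.70 at sufficient nitrate. All 3 low arrays lay above all 3 sufficient ones, and the sufficient arrays were close to the floor. NRT2.5 rose by 5.29 ± 0.37 (SE), about 39-fold, with an adjusted p of 3.01e-09.

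GRXC14, a CC-type glutaredoxin known as the shoot-to-root nitrogen signal CEPDL2, read 9.94, 10.44 and 9.73 at low and 5.82, 3.96 and 4.40 at sufficient nitrate. It rose by 5.31 ± 0.60, 39.7-fold (adjusted p = 9.81e-07). PRX52, a class III peroxidase, read 8.49, 8.69 and 7.69 at low nitrate and 2.11, 2.11 and 2.51 at sufficient nitrate, where it was at or near the floor. Its rise of 6.05 ± 0.55 was the largest among genes with a probe set of their own whose arrays did not overlap. BETA-VPE, a vacuolar processing enzyme, which is a cysteine protease, rose by 5.01 ± 0.57, from 3.59, 2.69 and 2.69 to 9.33, 7.62 and 7.06.

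SUFE2, an activator of cysteine desulfurase in iron-sulfur cluster assembly, read 11.03, 10.51 and 9.05 at low and 2.99, 4.40 and 7.39 at sufficient nitrate. The groups did not overlap, but the sufficient arrays spread widely, and SUFE2 missed the threshold with the 6 El-0 arrays alone (adjusted p = 0.11). The other 7 of the 12 largest rises, 4.73 to 5.61, were AT4G00700, AT2G41380, AT1G80130, AT5G52740, AT2G04050, AT2G23540 and AT1G59950, which the gene table lists with no symbol.

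The deepest fall exceeded the largest rise. AT1G49500, a gene with no symbol in the gene table, read 3.21, 4.07 and 4.29 at low nitrate and 9.41, 12.78 and 12.47 at sufficient nitrate. It fell by 7.70 ± 0.65, to 1 part in 208 (adjusted p = 2.90e-08), and by 8.77 without sufficient replicate 1, which was its lowest sufficient array. AT2G20670 fell by 6.10 ± 0.80 and AT3G28220 by 5.92 ± 0.57. GRXS8, a CC-type glutaredoxin, fell by 4.94 ± 0.43, from 7.82, 6.72 and 8.04 to 2.54, 2.61 and 2.61. MSRB6, a methionine sulfoxide reductase, which repairs oxidised methionine, fell by 4.63 ± 0.53.

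XTH18, a xyloglucan endotransglucosylase of the cell wall, fell by 4.53 ± 1.02 from 5.23, 7.73 and 9.20. GRXS5 fell by 4.51 ± 0.81. AT1G78450, AT5G03120, AT5G19120, AT3G50560 and AT5G50915, without symbols, fell by 4.70 to 5.24. All 24 of these rises and falls were called without sufficient replicate 1, and 9 of the 12 rises and 8 of the 12 falls with the 6 El-0 arrays alone. In the other lines, 20 of the 24 were called in the same direction in each of the 5, and XTH18 in none. The difference between El-0 and the mean of the other lines was called for 0 of the 24, a test that called 76 of 22746 probe sets, or 1943 at an unadjusted p below 0.05.

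Nitrate transport and signalling genes moved in both directions. Of 10 measured members 3 rose and 3 fell, against 14.1% and 11.1% of all probe sets, and their median change was -0.17 beside 0.00 over all probe sets. The 3 that rose were NRT2.5, GRXC14 and GRXC13. GRXC13, known as CEPD2 and also a descending signal, read 11.91, 11.71 and 11.67 at low and 8.62, 9.37 and 8.36 at sufficient nitrate, and rose by 2.98 ± 0.30. GRXS11, known as CEPD1, was 0.80 ± 0.30 higher at low nitrate and missed the threshold (adjusted p = 0.055). It read 10.64, 10.72 and 10.69 at low and 10.73, 9.19 and 9.72 at sufficient nitrate, so the groups overlapped at sufficient replicate 1, and without that array it rose by 1.23.

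HHO2 and HHO3, repressors of nitrogen starvation genes whose own transcripts nitrate is known to induce, fell. HHO2 read 4.90, 5.01 and 5.59 at low and 8.48, 8.85 and 8.55 at sufficient nitrate, a fall of 3.46 ± 0.46 (adjusted p = 7.32e-06). HHO3 fell by 3.62 ± 0.66, to 3.56, 4.41 and 5.20 from 6.71, 9.05 and 8.28. HHO1, of the same family, lay between 2.25 and 2.81 on the 6 arrays, near the floor, and did not pass the test. NRT1.4, a low-affinity transporter that governs nitrate storage in the leaf petiole, fell by 1.11 ± 0.28. Its sufficient replicate 1 at 11.08 was above the other sufficient arrays at 9.55 and 9.87, and without it the fall was 0.66 (adjusted p = 0.046).

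NRG2, a regulator of nitrate signalling, read 9.68, 10.13 and 9.93 at low and 9.65, 11.12 and 10.62 at sufficient nitrate. With the 6 arrays it was 0.55 ± 0.22 lower at low nitrate and not called (adjusted p = 0.064). Without sufficient replicate 1 it fell by 0.96 (adjusted p = 6.5e-05). GRXC11, known as CEPDL1, read 2.12, 6.42 and 5.37 at low and 2.11, 8.33 and 7.48 at sufficient nitrate, so replicate 1 of both groups was at the floor and the change of -1.34 was not called. Without sufficient replicate 1 GRXC11 fell by 3.27 (adjusted p = 0.034). Of 21 genes listed for nitrate reduction and nitrogen assimilation, the annotation used here paired only AT1G64190 with a probe set of its own. It codes for a 6-phosphogluconate dehydrogenase of the pentose phosphate pathway and changed by -0.02. The response of the assimilation enzymes themselves was therefore not assessed.

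CC-type glutaredoxins were the family with the widest opposite changes among the lists followed. Of 17 measured members, 4 rose and 7 fell, against 14.1% and 11.1% of all probe sets. Every 1 of the 11 changed by 2-fold or more, and the median change was -0.84. GRXC14, GRXC6, GRXC10 and GRXC13 rose. GRXS8, GRXS5, GRXS4, GRXS3, GRXS6, GRXS2 and GRXS1 fell. GRXS3, GRXS4, GRXS5 and GRXS8 lie in 1 tandem cluster with very similar sequences, and whether their probe sets share signal was not tested. At low nitrate these 4 lay between 2.11 and 2.61 on every array, which is at or near the floor. At sufficient nitrate GRXS3 read 5.44, 6.65 and 6.94, and GRXS4 read 6.87, 5.51 and 7.32.

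GRXC10 and GRXC6 depended on sufficient replicate 1 in size. GRXC10 read 8.35, 8.25 and 8.61 at low nitrate and 8.17, 2.47 and 4.05 at sufficient nitrate, so that array was level with the low group. It rose by 3.51 ± 0.87 with the array and by 5.15 without it. GRXC6 read 9.40, 8.81 and 8.98 at low and 7.03, 3.14 and 4.53 at sufficient nitrate, with rises of 4.17 and 5.23. GRXS1 was called on sufficient readings of 5.47, 2.76 and 2.78 against 2.11 to 2.12 at low nitrate, where it fell by 1.55, and by 0.66 without that array. With the 6 El-0 arrays alone, 2 of the 17 rose and 4 fell.

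**Figure D2:**
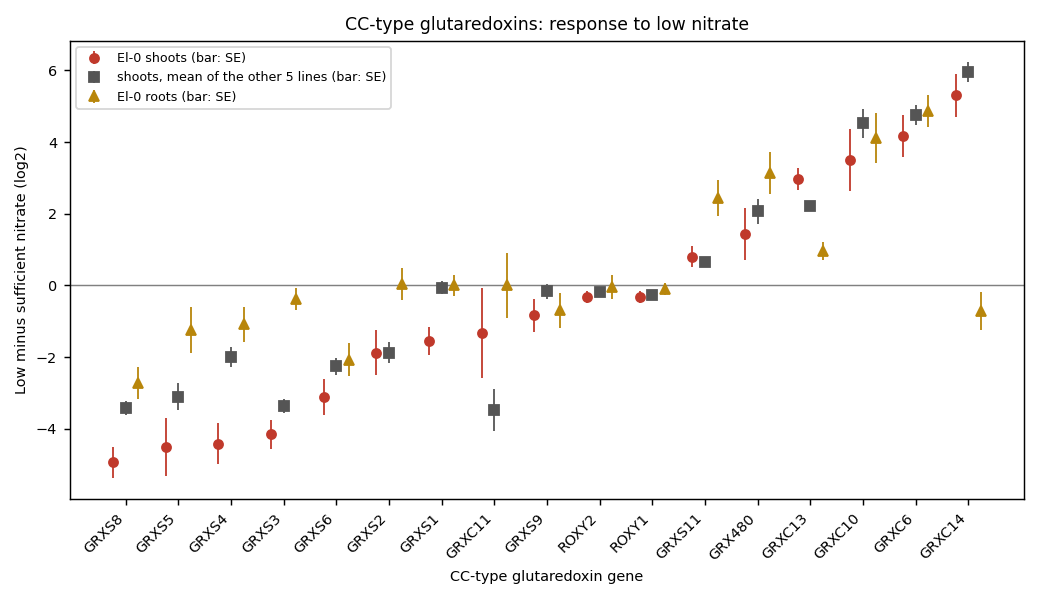
Change between low and sufficient nitrate (log2, vertical axis) of the 17 CC-type glutaredoxin genes, in El-0 shoots (circles), the mean of the other 5 lines' shoots (squares) and El-0 roots (triangles). Bars are standard errors. GRXC14 is at 5.31 in El-0 shoots and at -0.70 in El-0 roots, while GRXC6 is at 4.17 and 4.88.

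Genes of protein breakdown rose. Of 7 vacuolar proteases 5 rose and 0 fell, against 14.1% and 11.1% of all probe sets, with a median change of 2.09. GAMMA-VPE, the main vacuolar processing enzyme of vegetative tissue, read 14.35, 13.98 and 14.01 at low and 11.26, 12.47 and 12.35 at sufficient nitrate. It rose by 2.09 ± 0.19, 4.27-fold (adjusted p = 9.09e-08). ALPHA-VPE rose by 2.84 ± 0.70, AT4G04460 by 2.42 ± 0.59 and APA1, an aspartic protease, by 0.96 ± 0.14. DELTA-VPE, known from seed coats, was at the floor on all 6 arrays. In the fit of the 6 El-0 arrays alone 2 of the 7 rose, BETA-VPE and APA1.

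Of 10 autophagy genes 7 rose and 0 fell, against 14.1% and 11.1% of all probe sets, with a median change of 0.82. ATG8 proteins coat the membrane that engulfs cell contents for delivery to the vacuole. APG8A read 12.12, 11.72 and 11.79 at low and 9.64, 10.56 and 10.63 at sufficient nitrate, a rise of 1.60 ± 0.22. ATG8B rose by 1.59 ± 0.26, ATG8G by 1.24 ± 0.29, APG8H by 0.88 ± 0.22, ATG8C by 0.76 ± 0.20 and ATG8D by 0.74 ± 0.19. ATG3, the enzyme that joins ATG8 to lipid, rose by 0.57 ± 0.20. Sufficient replicate 1 was the lowest sufficient array for each of the 10.

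Without that array 5 of the 10 were called, with ATG8G at 0.79 and APG8H at 0.53. ATG3, at 0.21 (adjusted p = 0.36), and ATG8C, at 0.47 (adjusted p = 0.076), were not called. ATG8E moved from a difference of 0.65 to -0.37 and ATG8F from 0.49 to -0.12, neither called in either fit. With the 6 El-0 arrays alone, ATG8B was the 1 autophagy gene that rose.

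Genes that recover nitrogen from amino acids and ureides also rose. Of 10 members 6 rose and 0 fell, against 14.1% and 11.1% of all probe sets, with a median change of 1.29. ProDH2, a proline dehydrogenase, read 9.07, 8.54 and 6.19 at low and 2.11, 4.03 and 4.44 at sufficient nitrate and rose by 4.41 ± 0.74. ASPGB1, an asparaginase, which frees ammonium from asparagine, read 10.27, 9.69 and 8.31 against 7.20, 4.47 and 4.59, a rise of 4.00 ± 0.75. ALN, allantoinase of purine breakdown, read 10.48, 10.54 and 10.60 against 6.92, 8.42 and 8.54, a rise of 2.58 ± 0.25. All 3 low arrays lay above all 3 sufficient ones for these genes.

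DELTA-OAT, ornithine aminotransferase, rose by 1.70 ± 0.21, AAH, allantoate amidohydrolase, by 1.42 ± 0.28, and URE, urease, by 0.61 ± 0.20. URE lay between 2.49 and 3.59 and was at 0.38 and not called without sufficient replicate 1 (adjusted p = 0.20). DELTA-OAT was the 1 member that rose with the 6 El-0 arrays alone. IVD, LKR/SDH, ASPGA1 and UGLYAH did not pass the test. Of 6 senescence genes 2 rose and 0 fell, against 14.1% and 11.1% of all probe sets. WRKY6, a senescence-linked transcription factor, rose by 1.82 ± 0.53 and PPDK, pyruvate phosphate dikinase, 2.64-fold. Neither was called without low replicate 1 (adjusted p = 0.10 and 0.057), WRKY6 was not without sufficient replicate 1 (0.078), and PPDK was not without sufficient replicate 3 (0.064). SAG101, WRKY53, SAG29 and NOL were not called, and WRKY53 read 7.99, 4.76 and 4.17 at low against 3.55, 4.38 and 6.97 at sufficient nitrate.

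Anthocyanin genes rose, with 1 sufficient array at the level of the low group. Of 5 measured members 4 rose and 0 fell, against 14.1% and 11.1% of all probe sets, and the median change was 3.47. DFR, dihydroflavonol reductase of the late pathway, read 10.99, 9.75 and 7.64 at low nitrate and 7.86, 2.18 and 2.16 at sufficient nitrate. The groups overlapped, since sufficient replicate 1 lay above low replicate 3, while the other 2 sufficient arrays were at the floor. DFR rose by 5.39 ± 1.45 (adjusted p = 0.0076), by 7.29 without sufficient replicate 1, and was not called without low replicate 1 (adjusted p = 0.051) or with the 6 El-0 arrays alone (0.22).

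UGT75C1, an anthocyanin glucosyltransferase, showed the same order of arrays, with 9.37, 8.60 and 7.17 at low and 7.29, 2.33 and 2.49 at sufficient nitrate, and rose by 4.34 ± 1.09. UF3GT, which adds xylose to anthocyanin, rose by 3.47 ± 1.00 from 7.04, 2.79 and 2.82, and was not called without low replicate 1 (adjusted p = 0.090), sufficient replicate 2 (0.069) or sufficient replicate 3 (0.072). AT5MAT, an anthocyanin malonyltransferase, read 6.64, 4.62 and 3.45 against 2.84, 2.11 and 2.11 and rose by 2.55 ± 0.57, with groups that did not overlap. UGT78D2, which glucosylates both flavonols and anthocyanidins, was called only without sufficient replicate 1, with a rise of 1.69. With the 6 El-0 arrays alone, 0 of the 5 were called by limma.

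**Figure D3:**
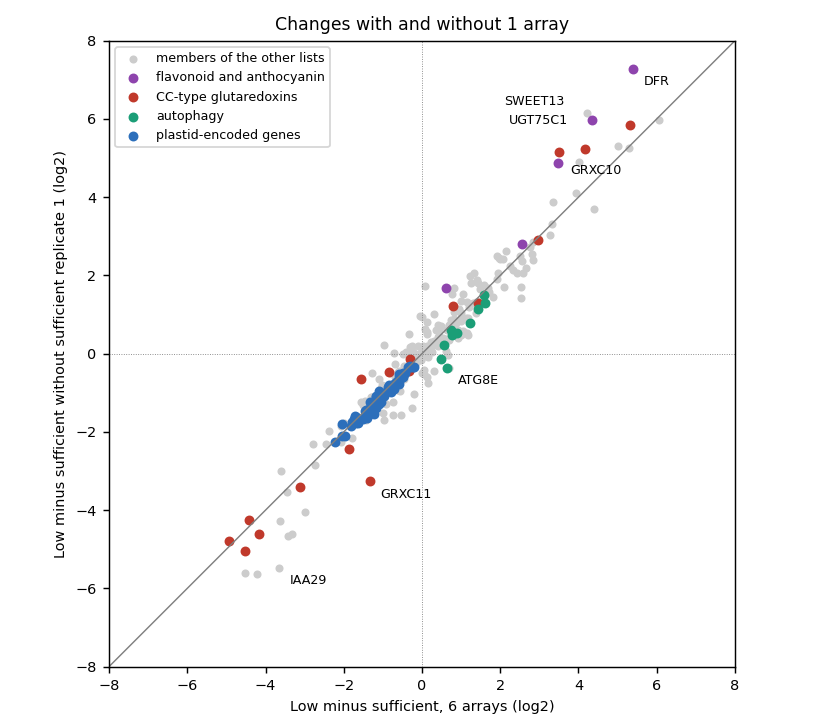
Change of the members of the gene lists (log2) with all 6 arrays (horizontal axis) and without sufficient replicate 1 (vertical axis), each point a gene and the grey diagonal equality. Anthocyanin genes such as DFR lie above the diagonal, at 5.39 and 7.29, autophagy genes such as ATG8E below it, and plastid-encoded genes along it.

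Photosynthesis and chlorophyll genes fell, by smaller steps than the genes above. Of 9 nuclear genes of the photosystems and electron transport 0 rose and 5 fell, against 14.1% and 11.1% of all probe sets. Their median change was -0.55. PSAN, a subunit of photosystem I, read 12.12, 13.14 and 12.93 at low and 13.65, 13.84 and 13.66 at sufficient nitrate and fell by 0.99 ± 0.25. LHCB4.1, PSAE-1, ATPC1 and PSBW fell by 0.39 to 0.61. Without low replicate 1, 2 of the 9 fell, and PSAN (adjusted p = 0.053) and LHCB4.1 (0.086) were among those not called. Limma called 0 of the 9 with the 6 El-0 arrays alone, and 2 of the 7 Calvin cycle and 1 of the 8 chlorophyll genes described next. LHCB4.2, an antenna protein of photosystem II, was 0.47 ± 0.27 lower and not called.

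Of 7 genes of the Calvin cycle and photorespiration 6 fell, against 11.1% of all probe sets, with a median of -1.27. GLYK, glycerate kinase of photorespiration, read 9.56, 9.70 and 10.06 against 11.40, 11.41 and 11.49, a fall of 1.66 ± 0.15 (adjusted p = 5.62e-08). SBPASE, a phosphatase of the Calvin cycle, fell by 1.27 ± 0.21, GDCT and AT1G32470 of the glycine cleavage system by 1.35 ± 0.21 and 1.38 ± 0.22, HPR, hydroxypyruvate reductase, by 1.01 ± 0.17 and PRK by 0.82 ± 0.17. RCA, Rubisco activase, lay between 14.19 and 14.44 on the 6 arrays and was the 1 member not called.

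Of 8 chlorophyll synthesis genes 6 fell and 0 rose, against 11.1% and 14.1% of all probe sets, with a median of -1.29. CHLI2, a magnesium chelatase subunit, read 7.95, 8.67 and 8.90 against 10.06, 10.22 and 10.06 and fell by 1.61 ± 0.35. HEME1, HEMB1, HEME2 and GSA1, enzymes of the shared tetrapyrrole steps, fell by 1.29 to 1.49, and CHLM, a methyltransferase of the magnesium branch, by 1.12 ± 0.32. CHLP was not called. PORB, the light-dependent protochlorophyllide reductase, read 9.60, 12.79 and 11.88 at sufficient nitrate against 11.33 to 11.83 at low nitrate and was not called.

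The plastid's own genes were lower at low nitrate throughout. All 69 measured members had negative changes, from -2.22 to -0.21, with a median of -1.17. Of these 45 fell and 0 rose, against 11.1% and 14.1% of all probe sets. The sign of each of the 69 rests on the same 6 arrays, and members share transcription units. By function, 26 of 35 genes for photosystem, cytochrome, ATP synthase and Rubisco subunits fell (median -1.18), 5 of 10 for NDH subunits (-1.28) and 11 of 20 for ribosomal proteins and RNA polymerase (-1.10). ndhH, a subunit of the chloroplast NDH complex, read 5.89, 6.15 and 5.72 at low and 8.47, 7.94 and 7.51 at sufficient nitrate and fell by 2.05 ± 0.46. atpI, an ATP synthase subunit, fell by 2.22 ± 0.53.

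The number of calls leaned on low replicate 1: without it 21 of the 69 fell, and without sufficient replicate 1, 42. With the 6 El-0 arrays alone, 4 of the 69 fell. With the Fei-0 replicate 3 arrays in the fit, limma called 0 of the plastid-encoded, nuclear photosystem and Calvin cycle genes and 2 of the 8 chlorophyll genes. Plastid transcripts mostly lack the poly(A) tail of nuclear ones, and the labels name an aRNA amplification kit. How such transcripts were primed was not tested.

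Sugar transport and storage genes split by member. Of 16 SWEET genes, which code for sugar channels, 4 rose and 3 fell, against 14.1% and 11.1% of all probe sets. At the floor on all 6 arrays were 5 of the 16. SWEET13, a sucrose exporter of phloem loading, read 10.73, 9.76 and 9.98 at low and 9.81, 4.00 and 3.99 at sufficient nitrate, another gene at which sufficient replicate 1 sat within the low group. It rose by 4.22 ± 1.08, and by 6.16 without that array. SWEET4 rose by 3.35 ± 0.73, AtVEX1, also named SWEET5, by 1.38 ± 0.22 and SWEET1 by 1.32 ± 0.41. Without sufficient replicate 1 SWEET1 rose by 2.06, and it was not called without low replicate 1 (adjusted p = 0.085), sufficient replicate 2 (0.14) or sufficient replicate 3 (0.12).

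The 3 SWEET genes that fell were SWEET2, SWEET17 and SWEET16, whose proteins are known from the vacuole membrane. SWEET2 read 7.25, 6.05 and 4.27 at low and 9.61, 7.86 and 8.46 at sufficient nitrate and fell by 2.79 ± 0.64. SWEET17 fell by 1.55 ± 0.32 and SWEET16 by 1.42 ± 0.34. Of 4 starch genes APL3 and APL4, large subunits of the first enzyme of starch synthesis, rose by 1.91 ± 0.63 and 2.33 ± 0.80. Neither was called without low replicate 1 (adjusted p = 0.14 and 0.23), and APL4 was not called without sufficient replicate 1 (0.098).

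**Figure D4:**
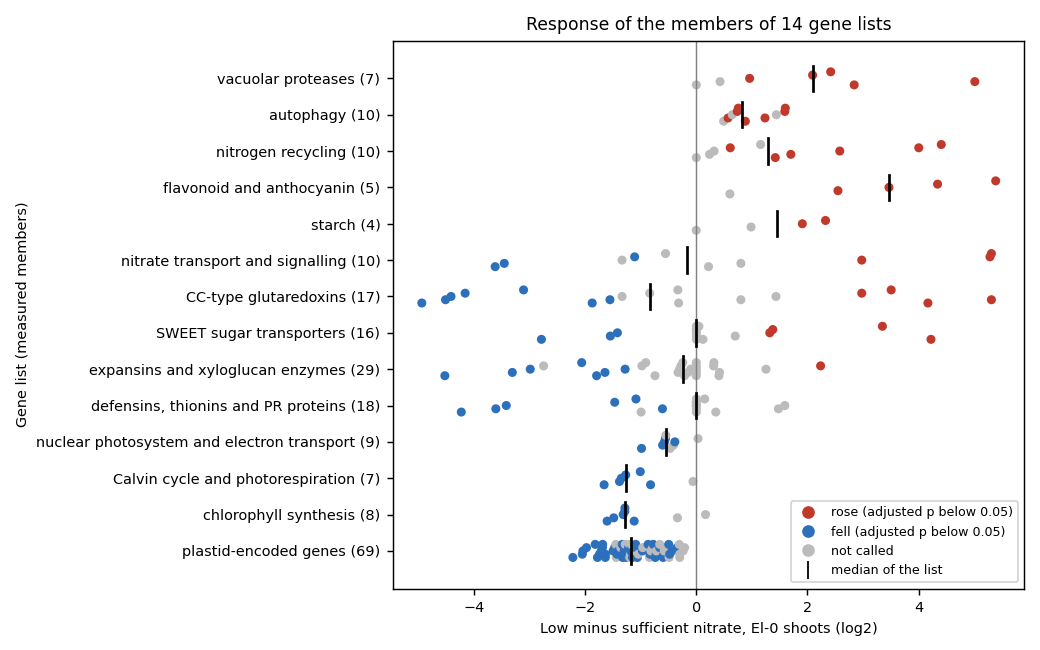
Change in El-0 shoots (log2, horizontal axis) of each measured member of 14 gene lists, with rises in red, falls in blue and members not called in grey. Black bars mark the list medians, from -1.29 for chlorophyll synthesis to 3.47 for the flavonoid and anthocyanin genes. Calls on the 69 plastid-encoded genes were all falls, and the CC-type glutaredoxins spread from -4.94 to 5.31.

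In lists of the cell wall, defence and conjugation the shares called, in either direction, can be read against 25.2% of all probe sets. Of 29 expansin and xyloglucan enzyme genes 7 fell and 1 rose, with a median of -0.24. XTH33 fell by 3.31 ± 0.83, EXLA1 by 2.99 ± 0.85 and XTH16 by 2.06 ± 0.28, and XTH29 rose by 2.24 ± 0.73 from the floor. XTH29 was called only with all 6 arrays or without low replicate 3 (adjusted p = 0.057 without sufficient replicate 1), and EXLA1 was not called without sufficient replicate 2 (adjusted p = 0.059) or 3 (0.066). Of 18 genes matched by symbol as defensins, thionins and pathogenesis-related proteins, 6 fell and 0 rose. At the floor on all 6 arrays were 7 of the 18. The falls include PDF1A (-0.61) and PDF1B (-1.47), peptide deformylases that share a symbol pattern with the defensins. PDF1A, at -0.48, was not called without sufficient replicate 1 (adjusted p = 0.088). THI2.2, a thionin, read 7.14, 9.72 and 9.27 at low and 13.56, 10.93 and 12.47 at sufficient nitrate, a fall of 3.61 ± 0.65. PDF1.2b, a jasmonate-responsive defensin, fell by 4.23 ± 1.35 with overlapping groups, and was called without low replicate 2 or sufficient replicate 1 but not without any of the other 4 arrays. Without low replicate 1 or sufficient replicate 3, 3 of the 18 fell.

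Of 51 UGT glycosyltransferases, which attach sugars to hormones and secondary metabolites, 13 rose and 1 fell, with a median of 0.26, and 8 rose without low replicate 1. UGT71C1 rose by 3.32 ± 0.75, UGT73B5 by 2.82 ± 0.37 and UGT72E1, a monolignol glucosyltransferase, by 2.54 ± 0.46. Of 11 tau-class glutathione transferases GSTU25 and GSTU22 rose by 3.93 ± 0.94 and 3.28 ± 1.04, and GSTU18 fell by 2.00 ± 0.28. GSTU22 was not called without sufficient replicate 1 (adjusted p = 0.069), low replicate 1 (0.054) or low replicate 2 (0.068). Of 23 cytochrome P450 genes 4 rose and 1 fell. Of 7 WRKY transcription factor genes WRKY6, WRKY47 and ZAP1 rose, by 1.82, 1.06 and 0.73. Without sufficient replicate 1, WRKY6 (adjusted p = 0.078) and WRKY47, at 0.59 (0.13), were not called. Centring each array on its median added falls to these lists and to the SWEET list. Falls then numbered 10 of the UGT, 8 of the P450 and 15 of the expansin and xyloglucan enzyme genes. They numbered 12 of the defensin and 8 of the SWEET genes. Members at the floor on all 6 arrays were among these falls. SWEET7, UGT84B2 and CYP71B31, for example, changed by 0.00 before centring and by -0.17 after it.

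The hormone and stress lists had calls at shares that can be read against 14.1% rises and 11.1% falls over all probe sets. Of 17 auxin genes GH3.17, which conjugates auxin to glutamate, rose by 2.56 ± 0.48 and IAA18 by 0.34 ± 0.12. IAA18 lost its call without 4 of the 6 arrays, each in turn (adjusted p = 0.10 to 0.12). IAA29, an auxin response repressor, read 2.11, 2.12 and 2.13 at low and 2.11, 8.60 and 6.61 at sufficient nitrate, so 1 sufficient array was at the floor and the change of -3.65 was not called. Without that array IAA29 fell by 5.48 (adjusted p = 0.021). Of 6 cytokinin genes ARR15, a response regulator that cytokinin induces, fell by 2.46 ± 0.62. After median centring 7 auxin and 4 cytokinin genes fell. Genes at the floor on all 6 arrays were among them, such as IAA31 and RR23, which centring moved from 0.00 to -0.17.

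Of 13 genes matched by symbol as cold and dehydration genes LTI30, RD2 and LEA18 rose, by 2.83, 1.13 and 1.20. KIN17, among the members not called, is a DNA- and RNA-binding protein rather than a cold gene. LEA18 read 5.38 on low replicate 1 and 2.11 to 2.45 on the other arrays, with a change of 0.17 without that array and an adjusted p of 0.091 without sufficient replicate 1, and LTI30 was not called without low replicate 1 (adjusted p = 0.076). Of 12 cell cycle and histone genes AUR1 and AUR2, mitotic Aurora kinases, fell by 2.07 and 1.52, and AUR2 lost its call without 5 of the 6 arrays, each in turn (adjusted p = 0.060 to 0.21). Among 7 bHLH regulators of iron supply, bHLH115 rose by 1.01 ± 0.23 and ILR3 by 0.43 ± 0.09. Of 4 genes matched by symbol as phosphate and sulfur starvation genes, PS2 fell by 0.59 ± 0.16. It was not called without sufficient replicate 1 (adjusted p = 0.062). PS2 is also the symbol of a presenilin gene, so its place in this list is uncertain. Of 6 class III peroxidases PRX52 and PRXR1 rose, and of 6 cell wall and lignin genes 0 were called by limma. The lists for NAC factors, cytosolic ribosomal proteins and the clock had 1 measured member each, NAC014, RPS13 and GI, and none was called.

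El-0 responded much like the other lines. Over the 12796 brighter probe sets the correlation of the El-0 shoot change with the mean change of the other 5 lines was 0.90, a description across probe sets that are not independent, and with single lines 0.82 to 0.87. The mean of the other lines rests on 28 arrays and had 6025 rises and 4679 falls called among all 22746 probe sets. Of the 1518 El-0 rises of 2-fold or more 1424 (93.8%) were also called that way in that mean. Of the 1492 El-0 falls of 2-fold or more 1418 (95.0%) were. In each of the 5 lines tested singly, 543 of these rises and 671 of the falls were called, and in none of them 186 and 162.

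The test of the difference itself called 40 probe sets where El-0 responded more positively and 36 where it responded more negatively, together 0.334% of those tested. These counts were unstable: without sufficient replicate 2 they were 179 and 155, without low replicate 3 they were 76 and 50, and without low replicate 1 they were 24 and 18. Among probe sets with a mean of at least 5 they were 13 and 17. At 3 of the 76, El-0 was at the floor on all 6 arrays.

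**Figure D5:**
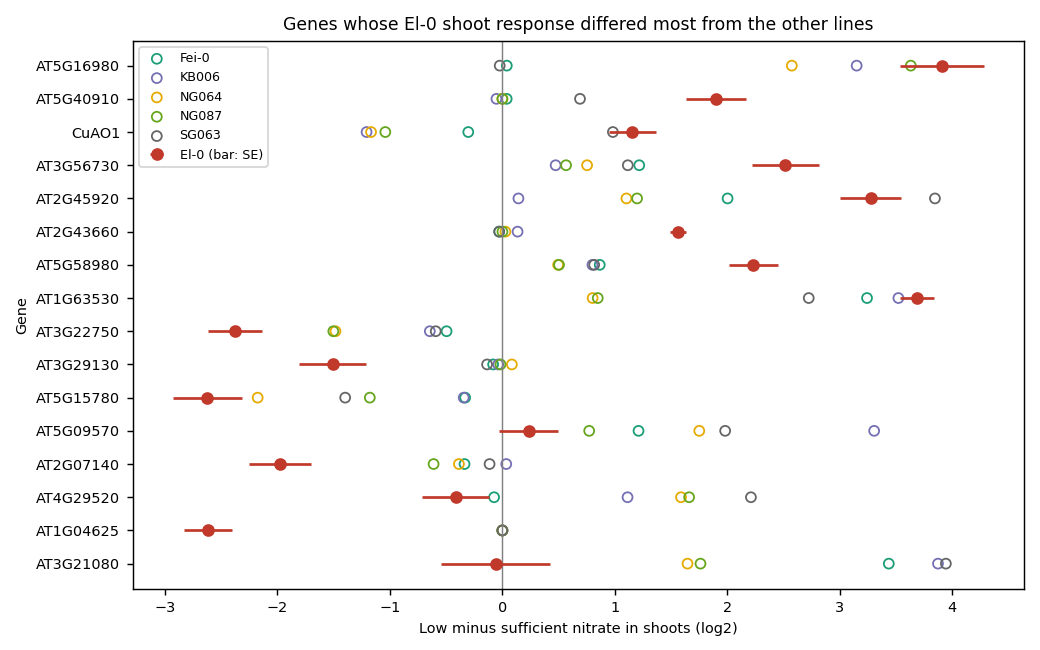
Shoot change between low and sufficient nitrate (log2, horizontal axis) of the 16 genes with the largest called differences, in El-0 (filled, bars are standard errors) and in each of the other 5 lines (open circles). AT1G04625 lies at -2.62 in El-0 and at 0 in the 5 other lines, and CuAO1 at 1.16 in El-0 and below 0 in 4 of them.

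Among the 16 genes with the largest differences, several gave a signal in El-0 and not in most other lines, or the reverse. Whether sequence differences between the lines affect these probe sets was not tested. AT1G04625 read 2.11, 2.11 and 2.51 at low and 3.91, 5.13 and 5.54 at sufficient nitrate in El-0 and averaged 2.11 in both supplies in each of the other lines. Its fall differed from their mean by -2.62 ± 0.24 (adjusted p = 7.46e-07), though in the 6 El-0 arrays alone the fall missed the threshold (adjusted p = 0.057). AT2G43660 read 3.62, 3.94 and 3.62 at low and 2.17 on each sufficient array, while the other lines averaged 2.14 to 2.28. AT3G21080 was the reverse case. It lay between 2.11 and 2.29 on all 6 El-0 arrays, and rose from a mean of 2.86 to 6.74 in KB006 and from 3.35 to 7.29 in SG063.

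AT5G40910 averaged 7.55 at low and 5.65 at sufficient nitrate in El-0 and rose by 1.90 ± 0.27. SG063 averaged 6.78 and 6.09, and the remaining 4 lines lay near the floor in both supplies. CuAO1, a copper amine oxidase of polyamine breakdown, read 7.72, 7.50 and 7.87 at low and 6.19, 6.58 and 6.85 at sufficient nitrate in El-0, a rise of 1.16 ± 0.21. Its change was -1.21 in KB006, -1.17 in NG064, -1.04 in NG087, -0.30 in Fei-0 and 0.98 in SG063, and El-0 differed from their mean by 1.70 ± 0.23 (adjusted p = 0.00046). AT4G29520 rose in the mean of the other lines by 1.30 and changed by -0.41 ± 0.30 in El-0, which was not called. Its difference from the other lines was not called without low replicate 1 (adjusted p = 0.10), low replicate 2 (0.065) or sufficient replicate 1 (0.077).

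Of the gene lists followed, only the SWEET list held a member with a called difference from the other lines, AtVEX1, which rose by 1.38 in El-0 and changed by 0.26 in their mean (adjusted p of the difference 0.038). GRXS4 fell by 4.42 ± 0.58 in El-0 and by 2.01 in the mean of the other lines, and DFR rose by 5.39 and 2.64, and neither difference was called (adjusted p = 0.16 and 0.69).

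El-0 shoots and roots shared part of the response. Across the 12796 brighter probe sets the correlation of shoot with root change was 0.51. Roots had fewer calls, 988 rises and 1201 falls in a fit of both organs. Among the 1518 shoot rises past 2-fold, 350 rose and 18 fell in roots, and among the 1492 falls past 2-fold, 399 fell and 7 rose there. The test of the difference between organs called 1695 probe sets with the higher change in shoots (7.45%) and 1276 with the lower (5.61%).

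GRXC14 carried one of the widest organ differences. It averaged 2.15 at low and 2.85 at sufficient nitrate in roots and did not pass the test there, and its shoot change exceeded its root change by 6.02 ± 0.75 (adjusted p = 1.31e-07). GRXC6 and GRXC10 rose in both organs, by 4.17 and 4.88 and by 3.51 and 4.12. NRT2.5 rose in roots by 2.18, less than in shoots (adjusted p of the difference 0.00022). DFR was not called in roots, where it averaged 3.00 and 3.41, and its organ difference of 5.80 was not called without low replicate 1 (adjusted p = 0.065), sufficient replicate 2 (0.052) or sufficient replicate 3 (0.057). AT1G80130 averaged 12.54 and 7.47 in shoots and 2.87 in roots under both supplies.

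AT4G39675 fell in roots by 4.81 and was not called in shoots, where low replicate 1 read 6.12 and the other 5 arrays 2.36 to 3.46. AT2G39920 and AT1G54050 went the other way, with shoot falls of 2.83 and 2.07 and root rises of 3.26 and 3.21. For both the shoot groups overlapped. Without sufficient replicate 1, AT2G39920 fell by 4.47 in shoots, and AT1G54050, at -0.93, was not called (adjusted p = 0.094). AT3G28220, AT5G03120, AT3G50560 and AT5G50915 fell by 4.70 to 5.92 in shoots and lay at 2.11 to 2.65 in roots under both supplies.

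Photosynthesis genes differed between organs in the opposite sense. PRK changed by -0.82 in shoots and by -3.95 in roots, where it averaged 3.47 at low and 7.41 at sufficient nitrate (adjusted p of the difference 6.65e-07). For 6 of the 9 nuclear photosystem genes the shoot change was the higher and for 0 the lower. The counts were 4 and 1 of the 7 Calvin cycle genes, and 3 and 1 of the 8 chlorophyll synthesis genes. The plastid-encoded genes were the reverse: for 18 of 69 the shoot change was the lower and for 0 the higher, and their median change in roots was 0.00. That median joins unlike parts. Photosystem, cytochrome, ATP synthase and Rubisco genes had a root median of -0.35, with 10 of 35 falling in roots and 5 organ differences. Ribosomal protein and polymerase genes had a root median of 0.37, with 1 of 20 falling in roots and 8 organ differences. NDH genes had a root median of 0.03.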

How the data were processed

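RNA of 72 samples was hybridised to 1-colour Affymetrix ATH1 arrays. The deposited values are on a log2 scale, and the authors' notes name affy, GCRMA and limma, per the submitters' processing notes, with no versions given; the scanner files were not used here. Arrays give no counting depth, and precision is limited by 3 arrays per group. Group means were fitted to the deposited log2 values with limma 3.58.1 in R 4.3.3, over the shoot groups for El-0 and the other lines and over both organs for roots, without filter, and adjusted by Benjamini-Hochberg over 22746 probe sets. Calls used an adjusted p below 0.05. The 2 Fei-0 shoot arrays of replicate 3 (4 arrays over both organs) were left out and restored as an alternative. The El-0 shoot response of the main fit was tested on simulated data, in which all groups had the same spread at a probe set. The other comparisons were not simulated.

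Of the probe sets, 13513 are paired with 1 gene in the platform annotation, 503 with several and 8730 with none here. Symbols came from RefSeq names of assembly TAIR10.1 by locus, and 25 were written by hand by locus. Named genes are the 12 largest rises and 12 largest falls whose arrays did not overlap, up to 4 per list and direction, 8 per direction against other lines, 6 per direction against roots, and a few genes of nitrate biology. A gene just outside these was named where a count needed it. The genes and lists were chosen with earlier results of these data known. Same-numbered low and sufficient arrays had correlations of deviations of -0.15, 0.05 and 0.01, so the numbers were not taken as pairs. Alternatives were median centring, quantile normalization, a mean of at least 5, an intensity trend, a replicate block, fewer arrays and leaving out each array. The exclusion of sufficient replicate 1 from the El-0-only fit was chosen after seeing the data.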

Additional observations from a re-analysis of the deposited data

Results flagged for a closer look

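The 28 results below have a called difference of response, by limma's test of the difference itself over all probe sets, either between El-0 shoots and the mean of the other lines or between El-0 shoots and roots. Values are differences of log2 changes between low and sufficient nitrate.

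Against the other lines, El-0 responded more positively at AT5G16980 (2.04), AT5G40910 (1.76), CuAO1 (1.70), AT3G56730 (1.69), AT2G45920 (1.62), AT2G43660 (1.54), AT5G58980 (1.53) and AT1G63530 (1.46). It responded more negatively at AT3G21080 (-2.99), AT1G04625 (-2.62), AT4G29520 (-1.71), AT2G07140 (-1.69), AT5G09570 (-1.57), AT5G15780 (-1.54), AT3G29130 (-1.47) and AT3G22750 (-1.43). Of these 16, 8 lost the call when some single El-0 shoot array was left out: AT5G15780 without any of 5 arrays, AT3G29130 of 4, AT5G16980 and AT4G29520 of 3, AT2G45920, AT3G22750 and AT3G56730 of 2, and AT2G07140 without 1. AT5G16980 was at 1.49 without low replicate 1 (adjusted p = 0.13).

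Against El-0 roots, the shoot change was higher at AT4G39675 (6.49), GRXC14 (6.02), DFR (5.80), AT4G10270 (5.18), AT3G61930 (5.11) and AT1G80130 (5.07). It was lower at AT2G39920 (-6.09), AT3G28220 (-5.92), AT1G54050 (-5.27), AT5G03120 (-5.06), AT3G50560 (-4.70) and AT5G50915 (-4.70). With the 12 El-0 arrays alone, 7 of these 12 were called.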

How the results depend on the processing

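No named gene that was called changed direction under the alternatives run. Some named genes that were not called changed sign without sufficient replicate 1, among them ATG8E, ATG8F, PORB, IVD, WRKY53 and SAG29. With all arrays as labelled the counts were 1834 rises and 1088 falls, 695 falls of 2-fold or more, 21 probe sets below the other lines, and 416 above and 352 below roots. Centring each array on its median gave 8430 falls and 6787 below roots. The 8430 include probe sets at the floor on all 6 El-0 shoot arrays, such as that of SWEET7. With the 6 El-0 shoot arrays alone 746 rose and 617 fell, 439 and 426 of them by 2-fold or more, and without sufficient replicate 1 as well 419 and 374, and 236 and 232. With the 12 El-0 arrays alone 688 were above and 545 below roots. Against the other lines, a mean of at least 5 left 13 above and 17 below, the replicate block 19 and 12, and leaving out Fei-0 gave 66 below. The block changed the other counts by less than 1.5 times. Leaving out each array in turn gave 2380 to 3145 rises, 1763 to 2577 falls, 1107 to 1707 rises and 1062 to 1595 falls of 2-fold or more, 24 to 179 above and 18 to 155 below the other lines, and 1197 to 2015 above and 893 to 1501 below roots. Of 110 named El-0 responses that were called, 92 to 106 stayed called when 1 array was left out, 103 with the block (and 8 of the 16 named differences from the other lines), 69 with all arrays as labelled, and 34 with the 6 El-0 arrays alone. The causes were not tested, except that the smaller fits hold fewer arrays. Genes near the floor have changes that can be understated.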
